A study of Mus musculus with 6 samples.

Results

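Ketone bodies are small fuels that the liver makes from fatty acids and that the heart burns. Slc16a1 encodes MCT1, a proton-coupled carrier of lactate, pyruvate and ketone bodies across the cell membrane. Inside mitochondria, Bdh1, the 3-hydroxybutyrate dehydrogenase, forms acetoacetate, Oxct1 (SCOT) gives it CoA from succinyl-CoA, and Acat1, the acetoacetyl-CoA thiolase, splits the product into acetyl-CoA for the tricarboxylic acid cycle. Acat1 also serves isoleucine breakdown, and Slc16a1 also serves lactate exchange, so neither is used for ketone bodies alone. Bdh1, Oxct1, Acat1 and Slc16a1 were picked by gene name with earlier results of these data known, and all 4 were found among the 49315 genes of the count table and were among the 14370 with enough reads to be tested.

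The 2 groups of 3 libraries each came from the mid-ventricle of adult mice infused with Angiotensin II, a pressor peptide, at 1 mg/kg/day over 28 days. The TET2KO mice were labelled as lacking TET2, an oxidase of 5-methylcytosine, in endothelial cells alone; they were compared with WT mice, which had the same infusion. There was no group without Angiotensin II. The sources used here give no Cre driver, deleted exons, sex or exact age, and whole tissue was sequenced, so the levels below are those of all heart cells together.

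Several facts about the libraries bear on every value. Between 22124844 and 30418909 reads were counted per library. Tet2 stood at 14.6, 8.01 and 10.4 CPM (reads scaled to library size by the TMM method) in the libraries labelled TET2KO, against 4.27, 4.33 and 3.08 CPM in those labelled WT. That is higher in TET2KO (log2 fold change 1.49 ± 0.29, SE; edgeR adjusted p = 0.0065), against the label, so each direction below is that of "the library labelled TET2KO" over "the library labelled WT", shortened to TET2KO and WT. Each library's dependence on transcript length and GC was also fitted and taken out (trend-removed below), and the Tet2 value was then 0.27 ± 0.17 (adjusted p = 0.21). TET2KO replicate 2 stood apart: across genes its log2 CPM correlated with the WT replicates at 0.955 to 0.968. With TET2KO replicates 1 and 3 it correlated at 0.928 and 0.959, and those 2 correlated with each other at 0.986. Fold changes followed transcript length, with a median log2 fold change of -1.29 in the shortest of 10 equal length classes and 1.38 in the longest. Mitochondrially encoded genes took 14.5 to 18.1% of the counts in TET2KO and 9.83 to 10.5% in WT. Of 10 cardiomyocyte markers, 5 were higher and 4 lower in TET2KO, with a summed level of 51050 to 56000 CPM in TET2KO and 75430 to 93060 CPM in WT. Of 10 endothelial markers 7 were higher and 3 lower (600.5 to 1005 CPM in TET2KO, 551.5 to 600.4 CPM in WT), of 10 macrophage markers 2 were higher and 3 lower (297.2 to 454.8 CPM in TET2KO, 693.2 to 827.5 CPM in WT), and of 8 erythroid markers 5 were tested and 5 lower (165.1 to 741 CPM in TET2KO, 1555 to 7038 CPM in WT). Fibroblast markers had 4 higher and 4 lower of 10 (1780 to 2082 CPM in TET2KO, 1873 to 1975 CPM in WT), and markers of smooth muscle and pericytes 4 higher and 3 lower of 10 (1429 to 2001 CPM in TET2KO, 2240 to 2383 CPM in WT). Atrial muscle markers had 3 of 5 tested, each lower (614 to 894.2 CPM in TET2KO, 1024 to 1549 CPM in WT). Adipocyte and lymphocyte markers were near the floor (summed levels 2.293 to 9.717 and 2.413 to 3.615 CPM in TET2KO, 2.208 to 3.883 and 3.304 to 6.622 CPM in WT). No marker of these lists was at 0 reads in all libraries, and the part of cell makeup in the results below was not tested. In tissue RNA, fewer cells of a type and less RNA per cell cannot be told apart.

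Per transcript length, Oxct1 was the most abundant of these genes in both groups and Bdh1 and Slc16a1 the least. In TPM, the authors' length-scaled unit, Oxct1 averaged 904 TPM in TET2KO and 686 TPM in WT. Acat1 followed with 472 TPM in TET2KO and 515 TPM in WT. Slc16a1 averaged 124 ± 19.1 TPM in TET2KO and 61.3 ± 7.55 TPM in WT, and Bdh1 120 ± 31.4 TPM in TET2KO and 63.2 ± 11.4 TPM in WT (SD, n = 3 each), so these last levels did not differ from each other beyond their spread in either group. By mean TPM among all 49315 genes, Oxct1 ranked 133 in TET2KO and 224 in WT, and Acat1 250 in TET2KO and 289 in WT. Slc16a1 ranked 812 and Bdh1 844 in TET2KO, against 1470 and 1434 in WT. Of the TPM of these genes together, Oxct1 held 54.5 to 57.3% in TET2KO and 51.5 to 52.1% in WT, and Acat1 25.2 to 32.3% in TET2KO and 38.2 to 39.3% in WT.

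The genes lie on different chromosomes of GRCm38: Bdh1 on chr16:31422280-31458901, Oxct1 on chr15:4026383-4155344 and Slc16a1 on chr3:104638668-104658462, each on the plus strand, and Acat1 on chr9:53580522-53610382 on the minus strand. The 250 bases before each annotated RefSeq start (GRCm38.p6, plus strand, 5′ to 3′) are shown for the members matched in the promoter table, 3 of 4; Acat1 is named only. They are shown because TET2 acts on methylated CG sites, which these RNA data do not measure. Capitals mark the matches to the motifs listed after the sequences.
Bdh1, start 1: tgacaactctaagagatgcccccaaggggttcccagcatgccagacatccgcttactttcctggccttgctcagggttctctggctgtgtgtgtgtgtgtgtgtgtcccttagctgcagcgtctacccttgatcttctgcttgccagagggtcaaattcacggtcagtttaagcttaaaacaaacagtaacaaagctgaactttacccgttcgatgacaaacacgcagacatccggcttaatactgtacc
Bdh1, start 2: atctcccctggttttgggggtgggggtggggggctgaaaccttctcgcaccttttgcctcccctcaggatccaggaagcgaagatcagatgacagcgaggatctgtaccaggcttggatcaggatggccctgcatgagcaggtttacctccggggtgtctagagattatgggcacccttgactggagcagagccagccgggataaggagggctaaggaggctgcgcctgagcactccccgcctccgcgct
Oxct1: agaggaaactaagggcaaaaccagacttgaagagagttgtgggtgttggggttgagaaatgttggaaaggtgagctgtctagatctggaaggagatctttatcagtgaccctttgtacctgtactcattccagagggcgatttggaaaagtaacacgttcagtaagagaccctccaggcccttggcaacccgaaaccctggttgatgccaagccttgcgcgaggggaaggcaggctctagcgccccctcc
Slc16a1: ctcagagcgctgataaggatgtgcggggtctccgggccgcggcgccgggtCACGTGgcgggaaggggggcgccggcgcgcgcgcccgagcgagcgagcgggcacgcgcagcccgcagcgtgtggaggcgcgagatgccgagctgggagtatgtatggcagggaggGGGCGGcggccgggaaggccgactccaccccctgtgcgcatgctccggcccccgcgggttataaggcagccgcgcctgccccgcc

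The Slc16a1 window, chr3:104638414-104638663, holds 37 CG dinucleotides, and 97.8% of the 32851 mouse windows of this length hold fewer. The Bdh1 windows, chr16:31422047-31422296 and chr16:31428503-31428752, hold 7 and 9, and the Oxct1 window, chr15:4026178-4026427, holds 6, where the median of all windows is 6. Searched on both strands were the PPAR response element of the DR1 type, the estrogen-related receptor element TNAAGGTCA, the E-box CACGTG, the CCAAT box, the TATA element TATAAA and the GC box GGGCGG, and no match overlaps another in these windows. Slc16a1 has 1 CACGTG, which 6.02% of all windows hold, and 1 GGGCGG, which 32.7% hold. The other windows have none of the listed letters. The PPAR element is found in 0.0335% of all windows, the estrogen-related receptor element in 1.14%, the CCAAT box in 33.8% and the TATA element in 12.4%.

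Acat1 was lower in TET2KO, and it was the only member past the test at an adjusted p under 0.05 in the counts as deposited: 0 members rose, 1 fell and 3 did not pass. Over all 14370 genes 62.9% passed, 33.4% higher and 29.4% lower, so 1 of 4 is no excess over the background. DESeq2 and limma-voom also called 0 members higher and 1 lower, and so did an unadjusted edgeR p under 0.05. With the trend removed, Slc16a1 passed as higher and Oxct1 and Acat1 as lower, where 46.3% of all genes passed, 21.9% higher and 24.3% lower. When replicate number was fitted as well, Acat1 alone passed, where 39.9% of all genes did. Without TET2KO replicate 2, Slc16a1 passed as higher and Acat1 as lower, where 75.1% of all genes passed, 39.8% higher and 35.3% lower. By CPM none of the 4 overlapped between the groups, as in 73.5% of all tested genes. By TPM Bdh1, Oxct1 and Slc16a1 were higher without overlap, as in 56.8% of all tested genes, and Acat1 overlapped; 73.3% had no overlap in either direction. The median log2 fold change was 0.02 over the members and 0.046 over all genes. In the authors' deposited table Acat1 is the member with an adjusted p under 0.05, as 65% of its genes have. None of the 4 is in the authors' list of significant genes, which holds 6254 genes, 43.5% of that table, with absolute log2 fold changes from 1.001 upward.

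**Figure D1:**
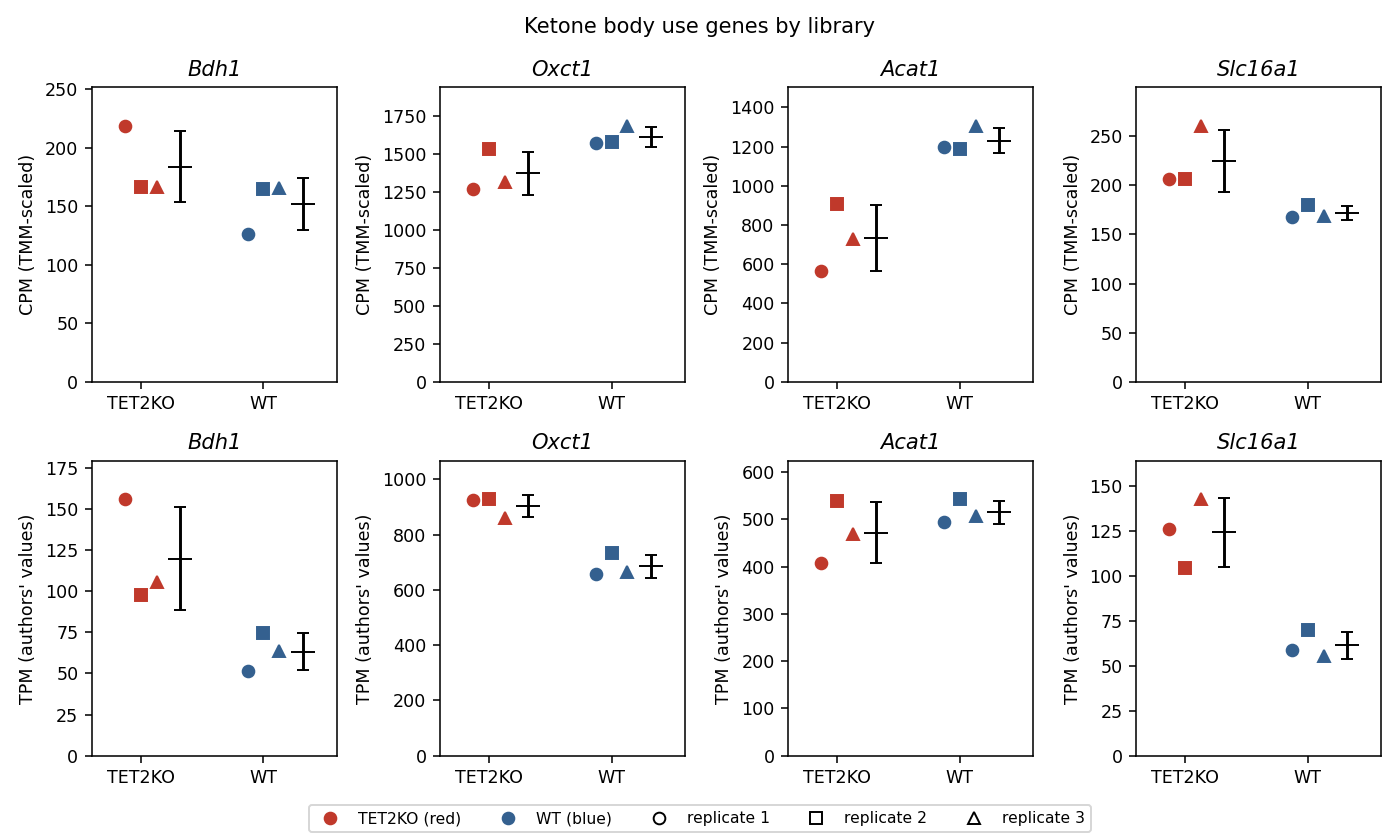
Levels of Bdh1, Oxct1, Acat1 and Slc16a1 in each library, TET2KO left and WT right, as CPM (top) and the authors' TPM (bottom), each axis starting at 0. Points are libraries, bars the mean ± SD of 3. Acat1 is lower in every TET2KO library by CPM, and Bdh1, Oxct1 and Slc16a1 are higher in every TET2KO library by TPM.

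Slc16a1, the carrier, had 206.5, 206.8 and 260.6 CPM in replicates 1, 2 and 3 of TET2KO, against 167.3, 179.8 and 168.3 CPM in WT. Every TET2KO library was above every WT library, as in 38% of all tested genes, and TET2KO replicate 3 was the highest. The log2 fold change of 0.39 ± 0.17 did not pass the test in edgeR (adjusted p = 0.084, range over 19 alternatives 0.0030 to 0.25). It passed without TET2KO replicate 1 (0.48, adjusted p = 0.047) or TET2KO replicate 2 (0.46, adjusted p = 0.010), and with the trend on length and GC removed (0.37 ± 0.13, adjusted p = 0.047). Slc16a1 is annotated with 1 transcript of 4426 nt. The median log2 fold change of genes in its length class was 0.66, and its own value was below that. The trend fitted on GC and the longest transcript together gave 0.017 for Slc16a1, and its own value was above that. On merged exon length the fitted trend was lower in TET2KO than in WT. The trend-removed value of Slc16a1 was then 0.78 (edgeR adjusted p = 0.0080).

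Bdh1, the dehydrogenase, stood at 218.9, 166.6 and 166.2 CPM in TET2KO, against 126.6, 164.6 and 165.5 CPM in WT. Replicate 1 of each group lay apart from the other two, which stood close together across the groups. The groups did not overlap, but only narrowly, and the log2 fold change of 0.27 ± 0.20 did not pass the test (edgeR adjusted p = 0.26, range over 19 alternatives 0.0080 to 0.85). With the trend removed the value was -0.20 ± 0.14 (adjusted p = 0.26), on the other side of 0. Gm15743, an antisense RNA that overlaps Bdh1, had 67 to 116 reads in TET2KO and 76 to 95 in WT, against 2638 to 8114 reads of Bdh1. A strand setting of the counting is not stated in the sources used, so it is not known to which gene, if any, overlapping reads were assigned.

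Oxct1, the CoA transferase that commits acetoacetate to oxidation, stood at 1268, 1537 and 1315 CPM in TET2KO, against 1571, 1581 and 1688 CPM in WT. Every TET2KO library was below every WT library, as in 35.5% of all tested genes, with TET2KO replicate 2 close to WT replicate 1. The log2 fold change of -0.23 ± 0.19 did not pass the test (edgeR adjusted p = 0.31, range over 19 alternatives 0.00086 to 0.67). With the trend removed on the longest transcript it passed (-0.43 ± 0.13, adjusted p = 0.024), and on the merged exon length it did not (-0.075 ± 0.14, adjusted p = 0.67). With replicate number added as a term, the value on the longest transcript was -0.44 and did not pass (adjusted p = 0.058). BC037032, a transcript on the other strand that overlaps its first bases, had 147 to 207 reads in TET2KO and 61 to 95 in WT, against 30138 to 47000 reads of Oxct1.

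Acat1, the thiolase of the last step, stood at 566.8, 905.9 and 730.6 CPM in TET2KO, against 1200, 1186 and 1306 CPM in WT. TET2KO replicate 2 was the closest to WT, and the groups did not overlap. Acat1 fell by 0.74 on the log2 scale (SE 0.23), to 734 ± 170 CPM in TET2KO against 1231 ± 66.0 CPM in WT (SD, n = 3 each; edgeR adjusted p = 0.022, range over 19 alternatives 6.9e-05 to 0.55). In the authors' deposited table its log2 fold change was -0.79 with an adjusted p of 0.0021. Its value with the trend removed on the longest transcript was -0.68 ± 0.15 (edgeR adjusted p = 0.0079). On the merged exon length the fall was smaller, at -0.44 (edgeR adjusted p = 0.044). The call did not hold in edgeR without TET2KO replicate 3 (-0.70, adjusted p = 0.092), WT replicate 1 (-0.77, 0.068), WT replicate 2 (-0.78, 0.063) or WT replicate 3 (-0.71, 0.082), and without TET2KO replicate 2 the fall was larger (-0.90, adjusted p = 0.00032). The median of genes in its length class was 0.28, on the other side of 0 from Acat1. The trend fitted on GC and the longest transcript together gave -0.077 for Acat1, on the same side. On merged exon length it was -0.28, 0.0010 and -0.21 in TET2KO and 0.18, 0.16 and 0.15 in WT. Cardiomyocyte markers went both ways: Myl2 averaged 10309 CPM in TET2KO and 32056 CPM in WT and Myl3 7605 CPM in TET2KO and 19622 CPM in WT, which set the lower sum, while Myh6, Ttn, Ryr2, Actc1 and Myh7 rose, and the median of the list was 0.27. Their part in the fall of Acat1 was not tested.

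How far the members seemed to move depended on the scaling. With total library size in place of TMM, the median of all genes was 0.47 instead of 0.046 on the log2 scale, and the log2 fold changes became 0.71 for Bdh1, 0.20 for Oxct1, -0.32 for Acat1 and 0.81 for Slc16a1. Relative to the median of all genes, both scalings gave 0.23 for Bdh1, -0.28 for Oxct1 and 0.34 for Slc16a1, and Acat1 stood at -0.80 with total library size and at -0.79 with TMM. A change of scaling moves all genes by about the same amount, so these values agree by construction. On log2(TPM + 1) values, where the median of all genes was 0.45, Bdh1, Oxct1 and Slc16a1 passed the test as higher in TET2KO (0.90 ± 0.22, 0.40 ± 0.14 and 1.00 ± 0.16, limma) and Acat1 did not pass (-0.13 ± 0.16). On these values 65.6% of all genes passed, and 76.4% of those calls were higher. Acat1 was below 0 and Slc16a1 above 0 in the main fit and all 19 alternatives, while Bdh1 and Oxct1 were each on the other side of 0 in 4 of these 20 fits. The order from Slc16a1 through Bdh1 and Oxct1 down to Acat1 was found in 19 of 20. Without TET2KO replicate 3 Bdh1 stood above Slc16a1. Fits that only rescale the libraries keep this order by construction.

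**Figure D2:**
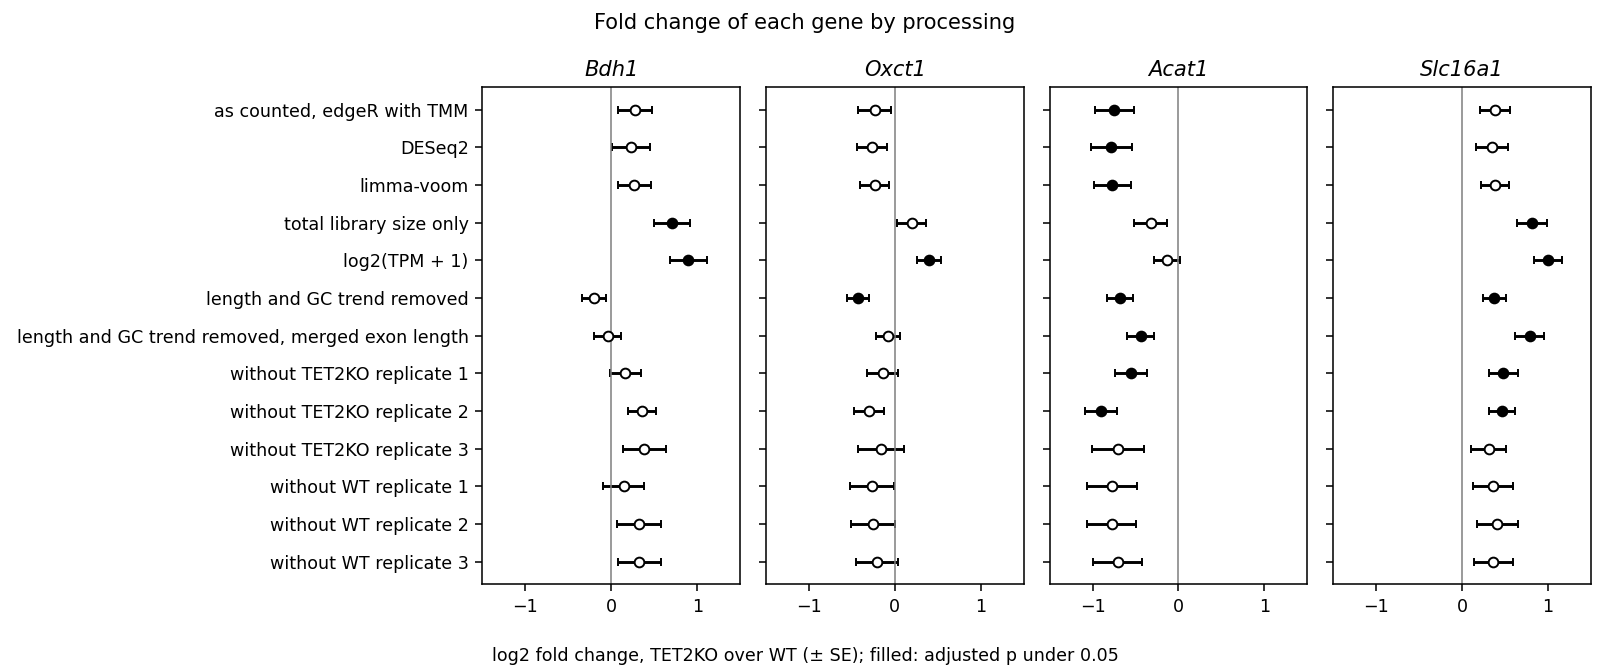
Log2 fold change of each gene, TET2KO over WT (x axis, ± SE), under different ways of processing (y axis); filled points have an adjusted p under 0.05. Acat1 lies below 0 and Slc16a1 above 0 in each line, while Oxct1 stands at -0.23 as counted and at 0.40 on log2(TPM + 1) values.

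Ratios of the genes within a library do not depend on how libraries are scaled to each other, so the balance along the pathway was compared next, relative to Oxct1 and as log2 ratios of TPM. Acat1 to Oxct1 was -1.18, -0.78 and -0.87 in TET2KO, against -0.41, -0.44 and -0.39 in WT. The WT libraries lay close together (SD 0.023, n = 3) and each TET2KO library was lower (SD 0.21, n = 3); the difference of -0.53 is 0.691-fold. Slc16a1 to Oxct1 was -2.88, -3.15 and -2.59 in TET2KO, against -3.49, -3.39 and -3.58 in WT, a difference of 0.61 or 1.53-fold. Bdh1 to Oxct1 was -2.57, -3.24 and -3.02 in TET2KO, against -3.67, -3.30 and -3.39 in WT, a difference of 0.51 or 1.42-fold, with TET2KO replicate 2 and WT replicate 2 close together. In none of the 3 ratios did the groups overlap, and each gave p = 0.1 in a two-sided exact permutation test (0.1 adjusted over the 3), the smallest that 3 against 3 libraries can give. Taken singly, 73.3% of all tested genes had no overlap by TPM, and no share was computed for ratios of other gene pairs. Each difference is that of the log2(TPM + 0.1) fold changes of the 2 genes, so the ratios are not separate results. TPM scales by length but does not remove the trend on length and GC. On the longest transcript, the trend's part in the log2 fold change was 0.47 for Bdh1, 0.20 for Oxct1, -0.077 for Acat1 and 0.017 for Slc16a1. These parts depended on the length used. On merged exon length the trend of Oxct1 was -0.14, -0.0031 and -0.10 in TET2KO and 0.098, 0.085 and 0.058 in WT. That of Slc16a1 was -0.35, 0.021 and -0.25 in TET2KO and 0.21, 0.19 and 0.17 in WT. With each library's trend subtracted, a setting chosen after seeing the data, the Acat1 ratio differed by -0.25 and the Slc16a1 ratio by 0.80, both still without overlap (p = 0.1 each, exact permutation test). The Bdh1 ratio then differed by 0.24 with overlapping groups (p = 0.3, exact permutation test), and by 0.038 when merged exon length was used.

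**Figure D3:**
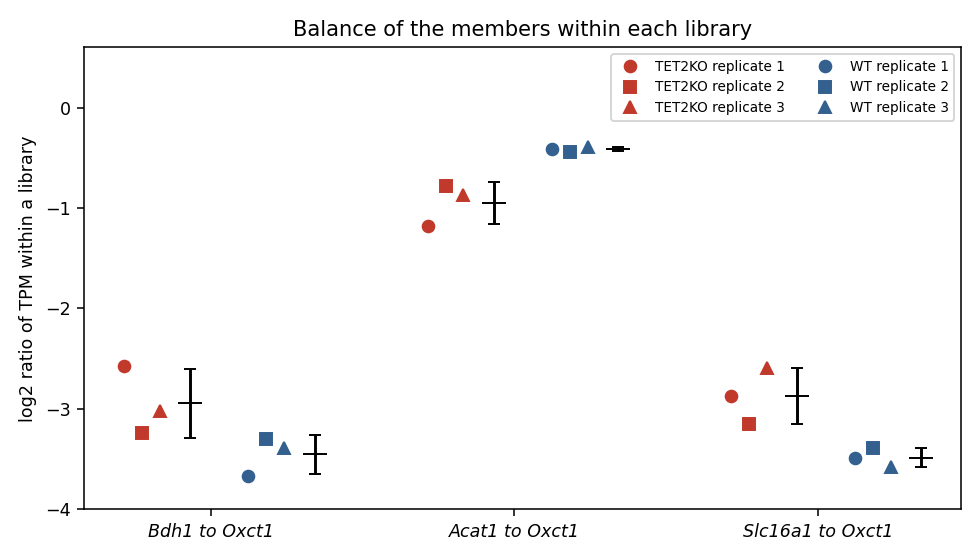
Log2 ratio of the TPM of Bdh1, Acat1 and Slc16a1 to that of Oxct1 within each library (y axis), TET2KO left and WT right in each pair; bars are the mean ± SD of 3. The ratio of Acat1 to Oxct1 averages -0.95 in TET2KO and -0.41 in WT.

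Genes with the most similar pattern over the 6 libraries were sought by the root mean square difference of centred log2 CPM among 12863 named genes. Nearest to Acat1 were Diablo (0.025) and Fam45a (0.029). Nearest to Oxct1 were Cct2 (0.022), Slc25a51 (0.025) and Ctsd (0.027), nearest to Slc16a1 were Slain2 (0.056), Ubac2 (0.061) and Dtnb (0.063), and nearest to Bdh1 were Cep76 (0.038), Nek4 (0.074) and Unc45a (0.077). Genes chosen for a like pattern share the member's direction as counted by construction. With the trend removed not all did. Of the genes nearest to Oxct1 (-0.43), Cct2 then stood at 0.39, and Slc25a51 and Ctsd at -0.76 and -0.46.

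Of the other 45 genes of ketone body synthesis, transport and acetyl-CoA use, 37 were tested, and 7 rose in TET2KO, 13 fell and 17 did not pass, with a median log2 fold change of -0.32 against 0.046 over all genes. That is 54.1% past the test, against 62.9% of all genes. Without TET2KO replicate 2 there were 10 higher and 17 lower of 38, where 75.1% of all genes passed. The lower count was 6 without TET2KO replicate 3, 8 without WT replicate 1 and 8 without WT replicate 3. Of all genes 41.8%, 42.9% and 41.2% passed in those fits. There were 10 higher and 10 lower of 37 with the trend removed, where 46.3% of all genes passed, 21.9% higher and 24.3% lower.

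Of the genes listed with ketone body synthesis, Bdh2, a cytosolic dehydrogenase, fell (edgeR adjusted p = 0.027) but rests on 4 to 11 reads in TET2KO and 10 to 25 in WT, and at -0.66 ± 0.47 it no longer passed once the trend was taken out. Its call was also lost without TET2KO replicate 1 or 3 or WT replicate 1 or 2 (adjusted p from 0.058 to 0.11). Hmgcll1, an extramitochondrial lyase, had at most 1 read in a TET2KO library and 2 in a WT library.

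Among the carriers and chaperones, 0 of 6 tested genes passed the test as counted in edgeR, in either direction, against 62.9% of all genes. At an unadjusted p under 0.05 it called 0 higher and 1 lower, as did DESeq2 and limma-voom after adjustment, and that gene was Bsg. Bsg, the basigin chaperone that brings MCT1 to the membrane, stood at 1479 ± 318 CPM in TET2KO and 2268 ± 329 CPM in WT, without overlap (log2 fold change -0.62 ± 0.24, adjusted p = 0.053). The lactate exporter Slc16a3 (MCT4) averaged 1.29 TPM in TET2KO and 0.713 TPM in WT, and Slc16a7 (MCT2) 1.39 TPM in TET2KO and 0.912 TPM in WT, so Slc16a1 was the most abundant of the 3 per length in each group. Slc16a3 passed as lower with the trend removed (-1.23 ± 0.40), where its value as counted was 0.24 ± 0.30. The lactate dehydrogenase genes Ldha and Ldhb fell by 0.63 and 0.79 (SE 0.21 and 0.23; adjusted p = 0.029 and 0.018), while with the trend taken out they stood at -0.16 and -0.043 and no longer passed. The Ldha call was lost without any 1 library other than TET2KO replicate 2 (adjusted p from 0.054 to 0.12) and the Ldhb call without TET2KO replicate 3, WT replicate 1 or WT replicate 3 (adjusted p from 0.061 to 0.092), and with the replicate block they stood at adjusted p = 0.090 and 0.060.

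Of the other thiolases, CoA transferases and the acetoacetate ligase, 2 of 5 tested genes were higher and 0 lower in edgeR, also at an unadjusted p under 0.05 and in limma-voom, while DESeq2 called 1 lower, Hadhb. That is 40% past the test, against 62.9% of all genes. With the trend removed 0 were higher and 0 lower, where 46.3% of all genes passed. Aacs, the cytosolic ligase that directs acetoacetate to lipid synthesis, rose to 3.84 ± 0.817 CPM in TET2KO, against 1.52 ± 0.132 CPM in WT (1.33 ± 0.26, adjusted p = 0.0065), but at 0.21 ± 0.25 with the trend taken out it did not pass. Hadha, a subunit of the trifunctional protein of fatty acid oxidation, rose by 0.55 ± 0.18 (adjusted p = 0.032), but stood at -0.17 with the trend removed and passed as lower on merged exon length (-0.56, adjusted p = 0.046). Its call also ended with the replicate block (adjusted p = 0.12) and without TET2KO replicate 3 or any 1 WT replicate (adjusted p from 0.098 to 0.12). Hadhb, its thiolase subunit, stood at -0.48 ± 0.21 (adjusted p = 0.077). Acat2, the cytosolic thiolase, averaged 4.01 TPM in TET2KO and 3.13 TPM in WT, against 472 TPM of Acat1 in TET2KO and 515 TPM in WT. Oxct2a and Oxct2b, the testis forms of the CoA transferase, had 0 reads in all libraries, which allows up to 0.168 CPM in the shallowest (3 reads; counting error only).

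Genes that meet acetyl-CoA and succinyl-CoA in the tricarboxylic acid cycle went both ways: 3 of 17 rose, 7 fell and 7 did not pass, so that 58.8% passed, against 62.9% of all genes. With the trend removed the balance turned, to 8 higher and 6 lower of 17, where 46.3% of all genes passed, 21.9% higher and 24.3% lower. Cs, the citrate synthase that takes up acetyl-CoA, rose to 952 ± 147 CPM in TET2KO, against 596 ± 13.3 CPM in WT (0.68 ± 0.20, adjusted p = 0.019; trend-removed 0.54 ± 0.12). The Cs call was lost with the trend on merged exon length (0.079, adjusted p = 0.63), with the replicate block (adjusted p = 0.071) and without TET2KO replicate 3 or any 1 WT replicate (adjusted p from 0.068 to 0.081). Ogdh, the subunit of the complex that makes succinyl-CoA, rose by 2.15 ± 0.34, and Sdha, the flavoprotein of succinate dehydrogenase, by 1.40 ± 0.27 (adjusted p = 0.0065 each; trend-removed 1.17 ± 0.17 and 1.42 ± 0.22). Suclg1, the shared subunit of the succinyl-CoA ligases, which draw on the same succinyl-CoA as Oxct1, fell by 1.00 (SE 0.24, adjusted p = 0.0096; trend-removed -0.28 ± 0.11, not past the test). Its partners Sucla2 and Suclg2 stood at 0.18 ± 0.17 and 0.21 ± 0.15 and did not pass, but passed as higher with the trend removed (1.00 ± 0.16 and 0.42 ± 0.10). Sdhb, Sdhc, Sdhd, Fh1, Idh3a and Idh3b also fell, by 0.78 to 1.52 on the log2 scale, and stayed past the test with the trend removed. The falls were then smaller for Sdhb (-0.35), Sdhd (-0.60), Idh3b (-0.48), Idh3a (-0.49) and Fh1 (-0.88), and larger for Sdhc (-1.05). With trend removal and the replicate block together Sdhb did not pass (adjusted p = 0.098), and without TET2KO replicate 3 Idh3a, Idh3b and Sdhc did not (adjusted p = 0.079, 0.053 and 0.056). Idh3a was also lost without WT replicate 1 or 3 (adjusted p = 0.064 and 0.075) and with the replicate block (adjusted p = 0.056), and Sdhc without WT replicate 3 (adjusted p = 0.057). Without TET2KO replicate 2 the list had 5 higher and 8 lower, where 75.1% of all genes passed, 39.8% higher and 35.3% lower.

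Among the regulators, 2 of 4 tested genes were higher and 2 lower, where 33.4% of all genes were higher and 29.4% lower. Ppara, the nuclear receptor of the fasting response, stood at 22.6, 11.6 and 24.2 CPM in TET2KO, against 5.14, 6.05 and 6.16 CPM in WT (log2 fold change 1.75 ± 0.30, adjusted p = 0.0065; trend-removed 1.26 ± 0.22). Ppargc1a, the PGC-1 alpha co-activator, rose by 1.22 ± 0.24 (trend-removed 0.77 ± 0.19). Esrra, an estrogen-related receptor of mitochondrial genes, and Sirt3, the mitochondrial deacetylase, fell by 0.84 and 0.94 (SE 0.21 and 0.20; trend-removed -1.61 ± 0.29 and -0.49 ± 0.12). The Esrra call was lost without TET2KO replicate 3, WT replicate 1 or WT replicate 3 (adjusted p from 0.051 to 0.059). The hydroxybutyrate receptor gene Hcar2 had 0 or 1 read in each TET2KO library and 2 to 4 in each WT library, and Ffar3 had 0 reads in all libraries.

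**Figure D4:**
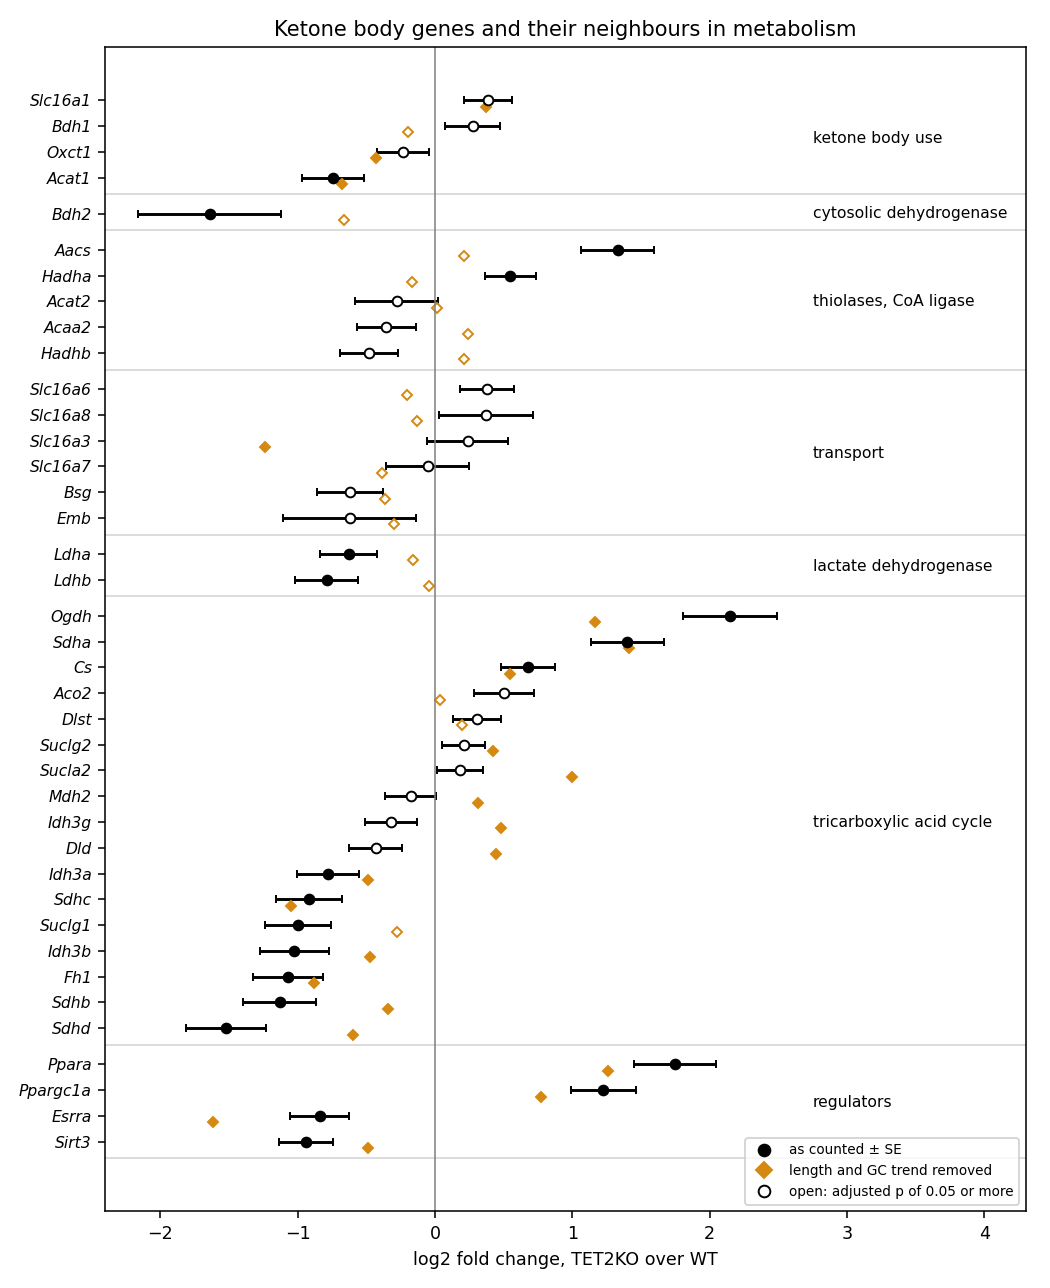
Log2 fold change, TET2KO over WT (x axis), of the members and of tested genes of neighbouring steps, by group; circles with SE bars are the counts as deposited, diamonds the values with the trend on length and GC removed, and filled symbols have an adjusted p under 0.05. Ogdh stands highest at 2.15 and Bdh2 lowest at -1.64 among the circles.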

How the data were processed

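The 6 libraries, 3 TET2KO and 3 WT, were poly(A)-selected and sequenced as read pairs of 150 nt, per the labels' protocols. Among tools, DESeq2, STAR (2.5.2b), Subread (1.5.2), featureCounts and Trimmomatic (0.36) appear in the submitters' processing notes with no role given, and both mm10 and GRCm38 as builds. The authors deposited raw read counts per gene, TPM values that sum to the same total in each library, and tables of log2 fold changes and p-values, whose library columns are a normalised signal, counts divided by 1 factor per library, per the file headers and a comparison with the counts. Columns were matched by library name, and 0 were left unmatched.

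Counts were tested with edgeR 4.0.16 in R 4.3.3 (quasi-likelihood F-test, robust, TMM, filterByExpr, group as only term, Benjamini-Hochberg over all 14370 tested genes at 0.05). SEs were derived from each estimate and its F statistic. Alternatives used DESeq2 1.42.0, limma 3.58.1 (voom, and log2 TPM of genes with at least 1 TPM in 3 libraries), other scalings and filters, and a trend of each library on transcript length and GC (GENCODE M21, mgcv 1.9.3, basis size 6 per axis) entered as offsets; 14341 tested genes had a length. The trend takes out real differences that follow length or GC along with technical ones. TPM ratios had 0.1 added and were compared with exact permutation tests. Log2 CPM for pattern likeness used a prior count of 2. The fits were tested on simulated data. Promoter windows are RefSeq's.

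The members and gene lists were chosen with earlier results of these data known. Named genes are the members, Tet2, the 3 tested genes nearest in pattern to each member (predicted genes and clones left out), and genes of the other pathway lists; some genes that this rule covers are not reported here, though counts over lists include them. The design text calls the samples biological replicates, and all carry 1 batch label. Counts of replicates differed beyond sampling noise in every pair (chi-square per degree of freedom from 12.6 to 293 within groups).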

Additional observations from a re-analysis of the deposited data

How the results depend on the processing

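Of the members, Acat1 kept its direction in all 19 alternatives and Slc16a1 did too. With total library size, Bdh1 (0.71) and Slc16a1 (0.81) passed the test and Acat1 (-0.32) did not. On log2(TPM + 1), log2(TPM + 0.1) and unfiltered log2(TPM + 1) values, Bdh1 passed at 0.90, 0.91 and 0.90 and Slc16a1 at 1.00, 1.01 and 1.00, Acat1 did not at -0.13 in each, and Oxct1 turned to 0.40, past the test in the first 2. With the trend removed, Oxct1 (-0.43) and Slc16a1 (0.37) passed; with merged exon length Slc16a1 passed at 0.78; without TET2KO replicate 2 as well, Oxct1 (-0.55) and Slc16a1 (0.44) passed. The cause was not tested. Leaving out each library in turn gave 0.15 to 0.38 for Bdh1, -0.30 to -0.14 for Oxct1, -0.90 to -0.55 for Acat1 and 0.31 to 0.48 for Slc16a1, with 0 to 2 members past the test. Each of the 3 ratios kept its direction in its own 10 alternatives, at 0.32 to 0.66 (Bdh1), -0.61 to -0.41 (Acat1) and 0.47 to 0.75 (Slc16a1) to Oxct1 with a library left out.

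Same-numbered samples' deviations from their group means correlated at 0.039, -0.23 and -0.013 across genes, and those of unlike number at -0.27 to 0.26. With means of 3 libraries and a spread this wide, these values cannot decide whether replicate numbers pair the samples. With the replicate block, 7618 genes passed in place of 9037, 0 members did, and Acat1 stood at -0.77 (adjusted p = 0.058). With block and trend removal the counts were 5731 in all and 2737 higher, and 1 member passed, Acat1 as lower. Slc16a1 (0.36, edgeR adjusted p = 0.082) and Oxct1 (-0.44, adjusted p = 0.058) then did not pass. For the ratios without trend removal, an exact sign-flip permutation test within replicate numbers gave p = 0.25 each, the smallest that 3 pairs allow.

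Members past the test numbered 1 as counted, 2 with total library size, and 3, 3 and 2 on the TPM scales. Of all genes, 62.9% passed as counted, 61.3% with total library size, and 65.6%, 65.9% and 17.8% on the TPM scales. With the trend removed the members past the test numbered 3 (3 also without TET2KO replicate 2), 2 with merged exon length and 1 with the block. Of all genes, 46.3% then passed (58.3% without TET2KO replicate 2), 50.5% with merged exon length and 39.9% with the block. Over all genes, 3150 were higher with the trend removed, 2270 lower with total library size, 1841, 1862 and 822 lower on the TPM scales, and 5559 passed unfiltered. Of all calls 74.2% were higher with total library size, 53.2% with TMM, and 76.4%, 76.2% and 85.2% on the TPM scales. Of the other pathway genes, 12 were higher and 7 lower with total library size, 14 and 4 on both filtered TPM scales, and 12 and 1 (13 in all) unfiltered. With a library left out, 6133 to 11178 genes passed, 3370 to 5928 higher and 2479 to 5250 lower, and 11 to 27 other pathway genes, 5 to 10 higher and 6 to 17 lower.

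Among other pathway genes, signs turned in 20 results that passed the test before or after the change of setting, listed next for each setting. With the trend removed these were Hadha (-0.17), Slc16a3 (-1.23), Idh3g (0.48), Dld (0.44) and Mdh2 (0.31); with merged exon length Acaa2 (0.43), Hadha (-0.56) and Dlst (-0.86); with the block as well Hadha (-0.17), Slc16a3 (-1.26), Idh3g (0.47) and Dld (0.44); without TET2KO replicate 2 as well Hadha (-0.26), Aacs (-0.0003), Slc16a3 (-1.73), Idh3g (0.55), Dld (0.51) and Mdh2 (0.37). On both filtered TPM scales Mdh2 stood at 0.46. Signs also turned in 55 results that passed in neither fit, such as Acaa2, Hadhb and Slc16a6 with the trend removed. Of the rest, 489 kept direction and side of the threshold, 46 newly passed and 87 no longer did. Genes of few reads, such as Bdh2, limit what this depth can show.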
